A study of Mus musculus with 12 samples.

Results

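The cadherins and protocadherins on the array were the genes whose symbol was Cdh followed by a number, without Cdh5, or began with Pcdh, taken from transcript clusters that carry 1 gene symbol. Where a gene had several such clusters, the one with the highest mean intensity over the 12 arrays was used. This gave 56 genes of 19938 genes with a cluster of their own, 22 named Cdh and 34 named Pcdh. They fall into 5 classical (type I) cadherins, 12 type II cadherins, 5 other numbered cadherins, 9 delta protocadherins, 3 other protocadherins and 22 beta protocadherins. The 14 alpha protocadherins share 1 cluster with several symbols and are not among the members, and no gamma protocadherin had a cluster of its own.

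Septum RNA was measured in 6 lactating and 6 virgin female mice, each on its own Affymetrix mouse gene array with no pooling. All 12 mice came from a line selectively bred for high maternal aggression from outbred hsd:ICR mice, and all were about 70 days old. The lactating mice had lived for 2 weeks with a breeder male, were then housed alone, and were killed on postpartum days 6 to 8. The virgin mice had lived for the same time with 2 other females before single housing, and 2 of them were in each of 3 estrous cycle stages (estrous, diestrous I and diestrous II), although the stage of each mouse is not given. Mating, pregnancy, pups, housing and lactation thus differed together between the groups and cannot be told apart. The paper describes punches of the whole septum, while the deposited protocol names the lateral septum.

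Cadherins are calcium-dependent adhesion proteins that span the cell membrane. Classical and type II cadherins bind cadherins on the neighbouring cell and are tied to actin through catenins, and in the brain they take part in sorting nuclei and in forming and holding synapses. Protocadherins have more varied tails. The delta protocadherins are single genes with roles in axon growth and synapse loss, while the alpha, beta and gamma protocadherins lie side by side in a cluster from which each neuron uses its own combination, a basis of self-recognition between neurites.

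The deposited values were intensities on a linear scale with array medians from 319.6 to 339, and the log2 values of any 2 arrays correlated at 0.987 to 0.994. Each difference below is lactating minus virgin on log2(intensity + 16), tested with limma over all 35556 clusters, and each member with a named difference was also given an exact two-sided permutation test over the 924 ways to assign 6 mice to each group, whose smallest p is 0.00216. A member was called when its unadjusted limma p was under 0.05. Percent differences compare mean intensities, while intervals in percent are converted from the log2 fit. A log2 difference understates the change where intensities are low. Intensity served to pick and rank clusters and to gauge low signal. It was not read as transcript amount across genes, because probes differ in brightness. All 8 markers listed for the lateral septum were measured and none was called, with summed intensities of 31434 to 34466 in lactating and 30489 to 34062 in virgin mice. The brightest of them were Gad1 and Gad2 (means 6566 and 7055), genes of GABA neurons, which the paper describes in the medial septum too. The sum is thus no measure of the lateral septum alone. Lactating mouse 4 stood apart in the markers of excitatory neurons of cortex and hippocampus, with a mean log2 deviation of 1.39 from the mean of the 12 mice. It also did so in those of the meninges (0.56) and the striatum (-0.46). Other mice deviated too. Excitatory neuron markers were at -0.72 in lactating mouse 1 and -0.52 in virgin mouse 1. Striatum markers were at 0.29 in virgin mouse 1 and 0.25 in lactating mouse 2. Medial septum markers ran from 0.30 in virgin mouse 4 to -0.29 in virgin mouse 6, and microglia markers were at 0.28 in virgin mouse 6. The part of these deviations in the results below was not tested.

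Few cadherins and protocadherins differed between lactating and virgin mice, and most differences were small. Cdh19, Cdh10, Pcdh1 and Pcdhb4 were higher in lactating mice, and Cdh15, Cdh16 and Pcdhb1 were lower. These 7 of 56 members (12.5%) compare with 7.95% of all clusters called in either direction, and with 8.69% of the brightest clusters of all 19938 genes. By direction, 4 members were higher against a background of 3.26%, and 3 were lower against 4.69%. Of the 56 members, 43 lay above the median intensity of all clusters. In a fit of the clusters above it, 1142 of 17778 were called higher and 501 lower, beside 6 and 0 of the 43 members. None of the members passed a Benjamini-Hochberg adjusted limma p of 0.05 (the smallest was 0.619), and 0% of all clusters did. Neither did any member have groups without overlap, where 0.208% of all clusters were wholly higher and 0.186% wholly lower in lactating mice. On linear intensities limma called 5 members higher and 2 lower, with backgrounds of 4.41% and 3.58%. The median difference over the members was 0.02 (log2), against -0.01 over all clusters, with 30 members positive and 26 negative. In the fit of clusters above the median intensity it was 0.030 over the 43 members, against 0.016 over all clusters tested there.

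**Figure D1:**
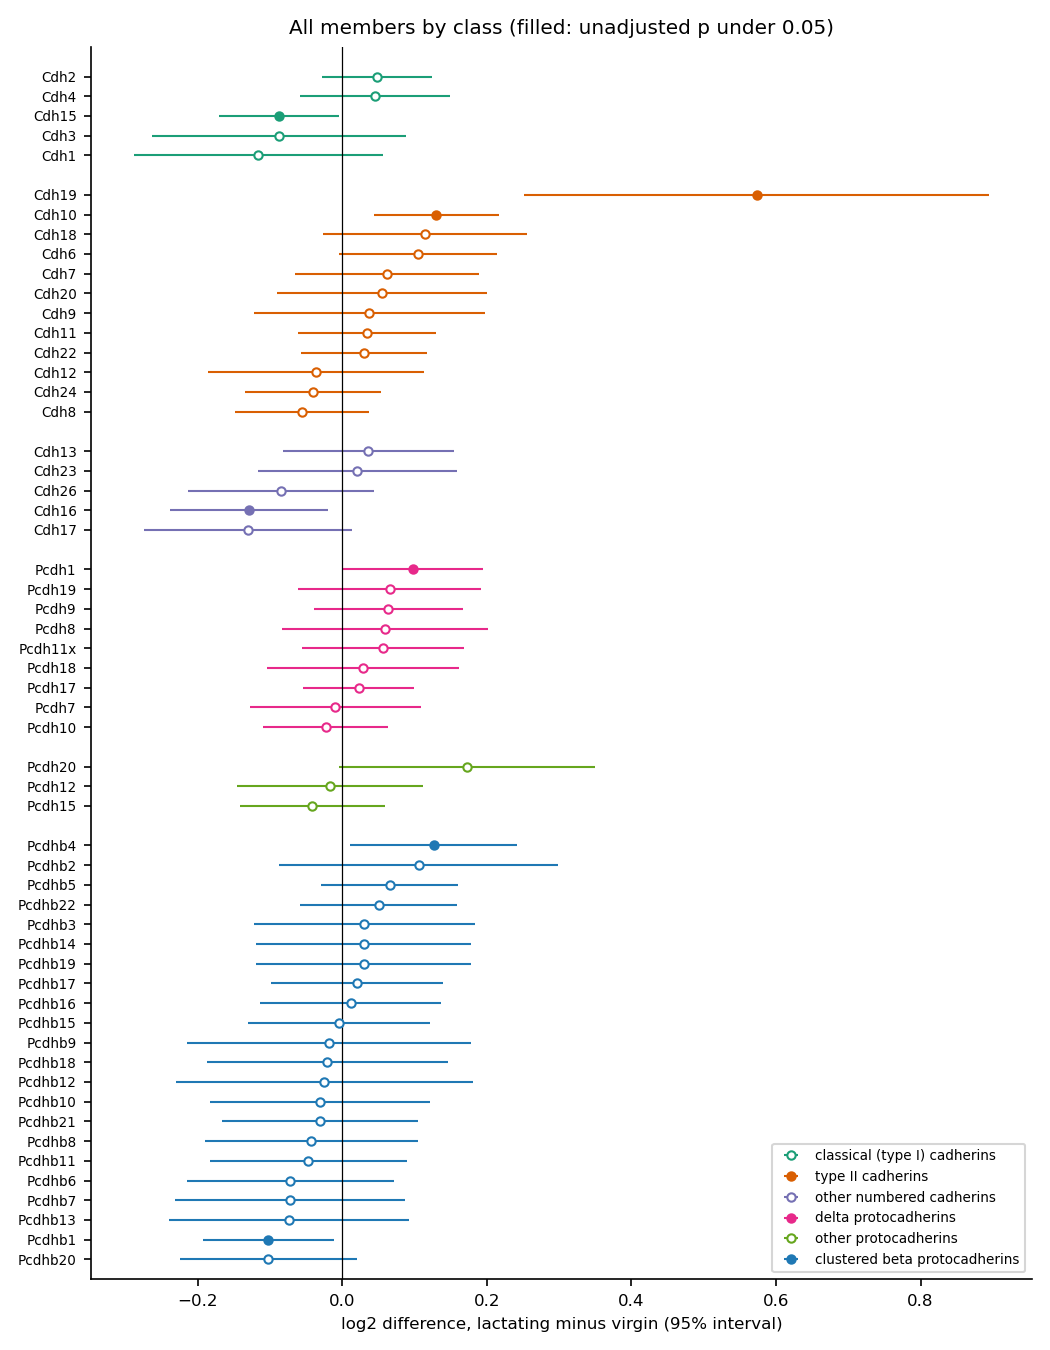
The log2 difference (lactating minus virgin, x axis) of each of the 56 members with its 95% interval, listed by class (y axis); filled points mark the 7 members with an unadjusted limma p under 0.05. Cdh19 stands to the right of all other members at 0.57, while the others lie between -0.13 and 0.17.

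The largest difference was that of Cdh19, a type II cadherin best known from the glia of peripheral nerves. Its intensity ran from 312 through a median of 434 to 580.4 in lactating mice, and from 222 through 275 to 368 in virgin mice. The groups overlapped, with 4 of 6 lactating mice above every virgin mouse and 5 of 6 virgin mice below every lactating mouse. The means were 433 ± 104 and 282 ± 47.9 (SD, n = 6 each), 53.6% apart. The log2 difference was 0.57 ± 0.149 (SE), and its 95% interval converts to 19.1% to 86.0% (exact permutation p = 0.0108, limma adjusted p = 0.619). Cdh19 also had the widest spread of all members among lactating mice, with a log2 SD of 0.34. In tissue of mixed cells, more cells that carry a transcript and more transcript per cell cannot be told apart. Of 9 measured oligodendrocyte markers, 0 were called, and their summed intensity was 17069 to 25246 in lactating and 18491 to 21874 in virgin mice. Their mean log2 deviation was 0.30 and 0.38 in lactating mice 5 and 6, whose Cdh19 intensities were 510.3 and 312, and -0.26 to -0.13 in the other lactating mice, whose Cdh19 intensities were 326 to 580.4; the part of these markers in the result was not tested. None of 5 measured markers of Schwann and olfactory ensheathing cells was called either, with summed intensities of 3535 to 4193 and 3705 to 4167; no marker in either list was at 0.

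Cdh10, a type II cadherin of neurons, had the smallest exact p among the members. Its intensity ran from 1441 through 1476 to 1524 in lactating mice and from 1233.5 through 1362 to 1442 in virgin mice. In all, 5 of 6 lactating mice lay above every virgin mouse, and only the lowest lactating and the highest virgin value crossed, at 1440.7 and 1441.7. The means were 1480.0 ± 27.5 and 1353 ± 74.7 (SD, n = 6 each), 9.43% apart. The log2 difference was 0.13 ± 0.0401 (SE), and its 95% interval converts to 3.06% to 16.2% (exact permutation p = 0.00433, limma adjusted p = 0.619). The spread among virgin mice (log2 SD 0.080) exceeded that among lactating mice (0.026). The study placed Cdh10 on its own list of changed genes from these same arrays, so this value is not independent evidence of its direction.

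The promoter of Cdh10 is shown as that of the member whose groups came closest to separating. RefSeq places it at chr15:18820079-18820378 on the plus strand (GRCm38.p6), 250 bases before to 50 after the start of the gene, and capitals mark matches to CANNTG, the E-box motif:

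Cdh10 promoter: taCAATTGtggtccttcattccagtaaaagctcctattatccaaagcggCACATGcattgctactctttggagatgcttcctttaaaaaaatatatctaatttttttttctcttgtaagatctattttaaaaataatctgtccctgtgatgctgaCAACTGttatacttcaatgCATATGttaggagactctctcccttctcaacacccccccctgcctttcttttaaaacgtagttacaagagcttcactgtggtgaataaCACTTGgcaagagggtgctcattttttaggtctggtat

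It holds 5 E-boxes, a motif found in 72.3% of 32851 promoters of the same length on either strand. Neither TATAAA, held by 13.6% of promoters, nor CCAAT, held by 37.4%, is in this window on either strand. Its GC content is 37.7% and it has 2 CpG dinucleotides. Of the 25 promoters available for 22 members it was the single one with so few, against 23.3% of all promoters, and the median was 14 in the members and 7 in all.

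Among the type II cadherins as a whole, 2 of 12 were called higher and 0 lower (3.26% and 4.69% of all clusters). Of their differences, 9 were positive, with a median of 0.05 beside 0.02 over all clusters above the median intensity, where all 12 lie. Cdh8, a synaptic type II cadherin and the brightest cluster of the class, had 3674, 3954 and 4169 (lowest, median and highest) in lactating and 3906, 4105 and 4428 in virgin mice. The groups overlapped, and the difference of -0.06 had an interval from -9.79% to 2.59% (exact permutation p = 0.186). Cdh12, related to Cdh10 and Cdh18, differed by -0.04, with 445 to 537 in lactating and 466.5 to 634 in virgin mice, and turned positive in 1 of 23 alternatives. In the RefSeq table, 5 of these genes follow each other among the members on chromosome 15 (Cdh6, Cdh9, Cdh10, Cdh12 and Cdh18). Of these 4 differences were positive and 1 negative, with a median of 0.10, and only that of Cdh10 was called. The 3 on chromosome 1 (Cdh20, Cdh7 and Cdh19) were all positive, with only Cdh19 called.

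**Figure D2:**
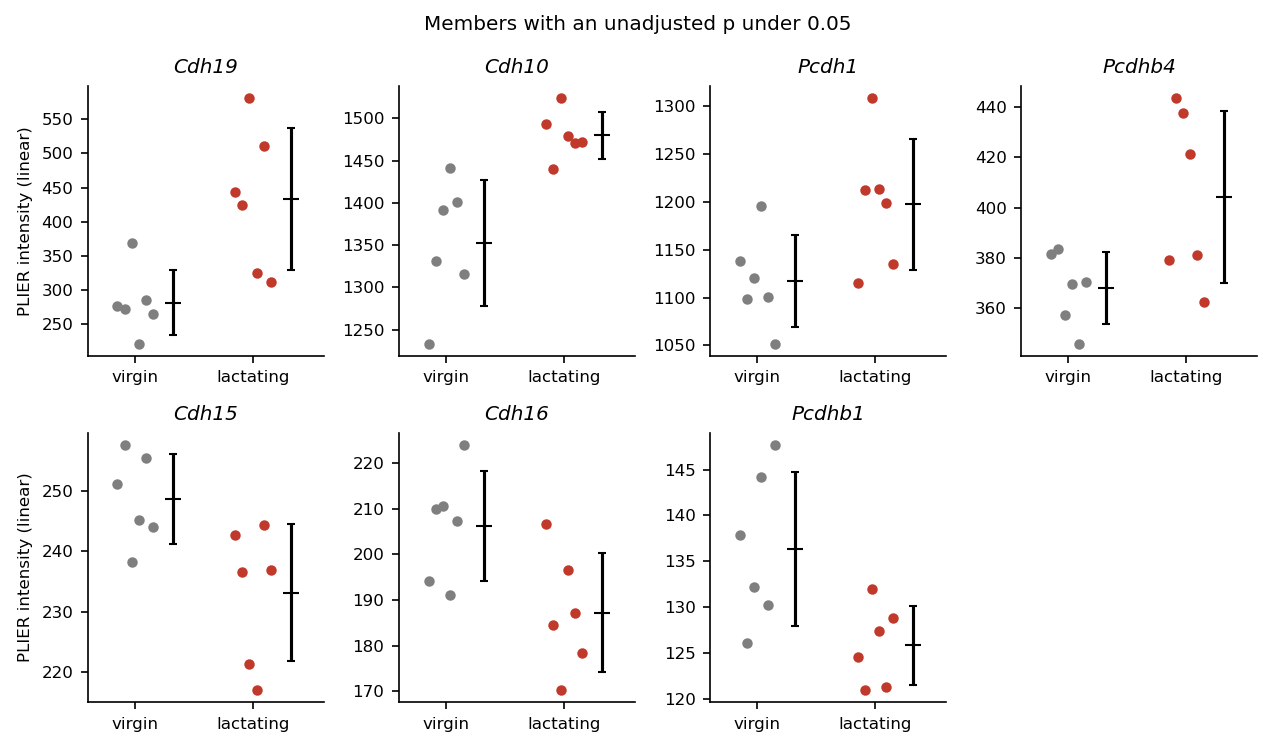
PLIER intensity (linear, y axis) of the 7 called members in each of 6 virgin and 6 lactating mice, 1 panel per gene; each point is a mouse, and the bar shows the mean and SD. The groups overlap in every panel, least in Cdh10, where 5 of 6 lactating mice lie above every virgin mouse.

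The classical cadherins gave 0 higher and 1 lower of 5 (3.26% and 4.69% of all clusters), with a median difference of -0.09. Without lactating mouse 3, virgin mouse 1 or virgin mouse 6 the median was -0.032, -0.055 or -0.043, and it was -0.044 and -0.037 after quantile normalization and cyclic loess. Among clusters above the median intensity, where only the brighter genes of the class were tested, it was 0.046. Cdh2 (N-cadherin), the main classical cadherin of neurons and the brightest cluster of the class, had 2600.5, 2669 and 2733 in lactating and 2444, 2591 and 2757 in virgin mice. The lactating values lay inside the range of the virgin ones, and the difference of 0.05 had an interval from -1.96% to 8.995% (exact permutation p = 0.110). Cdh15 (M-cadherin), known from muscle, was lower in lactating mice, with 217, 237 and 244 against 238, 248 and 258. In all, 4 of 6 lactating mice lay below every virgin mouse. The means were 233 ± 11.3 and 249 ± 7.40 (SD, n = 6 each), with a log2 difference of -0.09 ± 0.0384 (SE, exact permutation p = 0.0130, limma adjusted p = 0.623). The call was lost without lactating mouse 2, 3 or 4 or virgin mouse 1, 2 or 5, and with a robust variance trend. Cdh1 (E-cadherin), the epithelial cadherin, differed by -0.12 with wide overlap (175 to 207 and 192 to 279.96; exact permutation p = 0.210).

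The other numbered cadherins lack the usual cadherin tail or have other domains. Of these, 0 of 5 were higher and 1 was lower (3.26% and 4.69% of all clusters), with a median of -0.09. The median was -0.052 without lactating mouse 6, -0.040 after cyclic loess, -0.044 after quantile normalization, and 0.036 where just the brighter clusters were tested. Cdh13 (T-cadherin), which is held in the membrane by a lipid anchor and is the brightest cluster of the class, had 2357, 2473 and 2755 in lactating and 2174, 2539 and 2581 in virgin mice. These groups overlapped, with a difference of 0.04 (interval -5.56% to 11.3%; exact permutation p = 0.519). Cdh16, the kidney cadherin, was lower in lactating mice, with 170, 186 and 207 against 191, 209 and 224. Here 4 of 6 lactating mice lay below every virgin mouse, and the means of 187 ± 13.0 and 206 ± 12.0 (SD, n = 6 each) gave a log2 difference of -0.13 ± 0.0507 (SE; exact permutation p = 0.0260, limma adjusted p = 0.619). The call was lost with replicate number as a block and without lactating mouse 3 or 6 or virgin mouse 6.

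Of 9 delta protocadherins, 7 differences were positive, with a median of 0.06 beside 0.02 over all clusters above the median intensity. In this class 1 was called higher (3.26% of all clusters). Virgin mouse 6 was lowest of its group for 6 of the 9, and without it the median was 0.011, while without lactating mouse 3 or 4 it was 0.030 or 0.036. Quantile normalization and cyclic loess gave medians of 0.033 and 0.035. The member called was Pcdh1, found in brain and airway epithelium, with 1116, 1206 and 1308 in lactating and 1052, 1111 and 1196 in virgin mice. In all, 4 of 6 lactating mice lay above every virgin mouse. The means were 1197 ± 68.4 and 1118 ± 48.0 (SD, n = 6 each), 7.14% apart. The log2 difference was 0.10 ± 0.0449 (SE), and its interval converts to 0.0131% to 14.4% (exact permutation p = 0.0368, limma adjusted p = 0.623). The call was kept in only 3 of the 12 fits without 1 mouse. It was lost with replicate number as a block, after quantile normalization and after cyclic loess. Pcdh10, the brightest cluster of the class, had 2348, 2499 and 2546 in lactating and 2363, 2524 and 2725 in virgin mice, a difference of -0.02 with overlapping groups (interval -7.29% to 4.48%; exact permutation p = 0.532). Pcdh11x, a gene of the X chromosome, had 1524, 1558 and 1599.8 against 1268, 1537 and 1594, a difference of 0.06 (exact permutation p = 0.312).

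The other protocadherins, Pcdh12, Pcdh15 and Pcdh20, gave no call, and their median of -0.02 changed sign in 5 of 23 alternatives. Pcdh20 had the largest difference of any member that was not called, with 574, 633 and 732 in lactating and 485, 554 and 673 in virgin mice. In all, 2 lactating mice lay above every virgin mouse, and the log2 difference was 0.17 with an interval from -0.346% to 27.5% (exact permutation p = 0.0758). It passed an unadjusted limma p of 0.05 in 9 of 23 alternatives. Pcdh15, which with Cdh23 forms the tip links of hair cells, had 1128, 1205 and 1361 against 1201, 1241 and 1343, a difference of -0.04 with overlapping groups (interval -9.35% to 4.19%; exact permutation p = 0.355). Of the 49 members not called, 47 had 95% intervals within 20% of no change in both directions, and the exceptions were Pcdh20 and Pcdhb2, the latter named after its value was seen (-5.84% to 23.0%).

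Of the 22 beta protocadherins, 1 was called higher and 1 lower (3.26% and 4.69% of all clusters). Of their differences, 9 were positive, with a median of -0.02 that changed sign in 7 of 23 alternatives (-0.046 to 0.018 when 1 mouse was left out). These genes are near-identical in sequence over long stretches, so that their probes may share signal, and they cannot be counted as independent. Pcdhb4 had 363, 401 and 443 in lactating and 346, 370.1 and 384 in virgin mice, with 3 of 6 lactating mice above every virgin mouse. The means were 404 ± 34.1 and 368 ± 14.3 (SD, n = 6 each), 9.80% apart. The log2 difference was 0.13 ± 0.0534 (SE, exact permutation p = 0.0498, limma adjusted p = 0.623). Pcdhb1 had 121, 126 and 132 in lactating and 126, 135 and 148 in virgin mice, with 3 lactating mice below every virgin mouse. Its means were 126 ± 4.36 and 136 ± 8.41 (SD, n = 6 each), with a log2 difference of -0.10 ± 0.0420 (SE, exact permutation p = 0.0216, limma adjusted p = 0.619). This call was lost without lactating mouse 2 or 5 or virgin mouse 1, 4 or 6, on linear intensities and with a robust variance trend. Pcdhb15, the brightest cluster of the class, had 590.1, 643 and 703 against 585, 641 and 728, and its difference was -0.0042 with an interval from -8.62% to 8.80%.

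The beta genes varied together from mouse to mouse within each group. Among virgin mice, mouse 4 was highest for 17 of 22 beta genes, at a mean log2 deviation of 0.14 from the mean of the 12 mice. That mouse was highest for 13 of the 34 other members and for 23.9% of the 19938 genes. Among lactating mice, mouse 2 was highest for 11 of 22 and above the median of its group for 20 (mean deviation 0.11), and it was highest for 4 of the 34 other members and 16.9% of all genes. Lactating mice 1 and 5 were low, each at a mean deviation of -0.09, and mouse 5 was lowest for 10 of 22. Pcdhb12 and Pcdhb9 had the largest spread among lactating mice after Cdh19, with log2 SDs of 0.21 and 0.19. Pcdhb12 had 208, 288 and 318 in lactating and 252, 291 and 322 in virgin mice, and Pcdhb9 had 249, 303 and 372 against 266, 309 and 348. Their differences of -0.02 each changed sign in 4 and 8 of 22 alternatives.

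**Figure D3:**
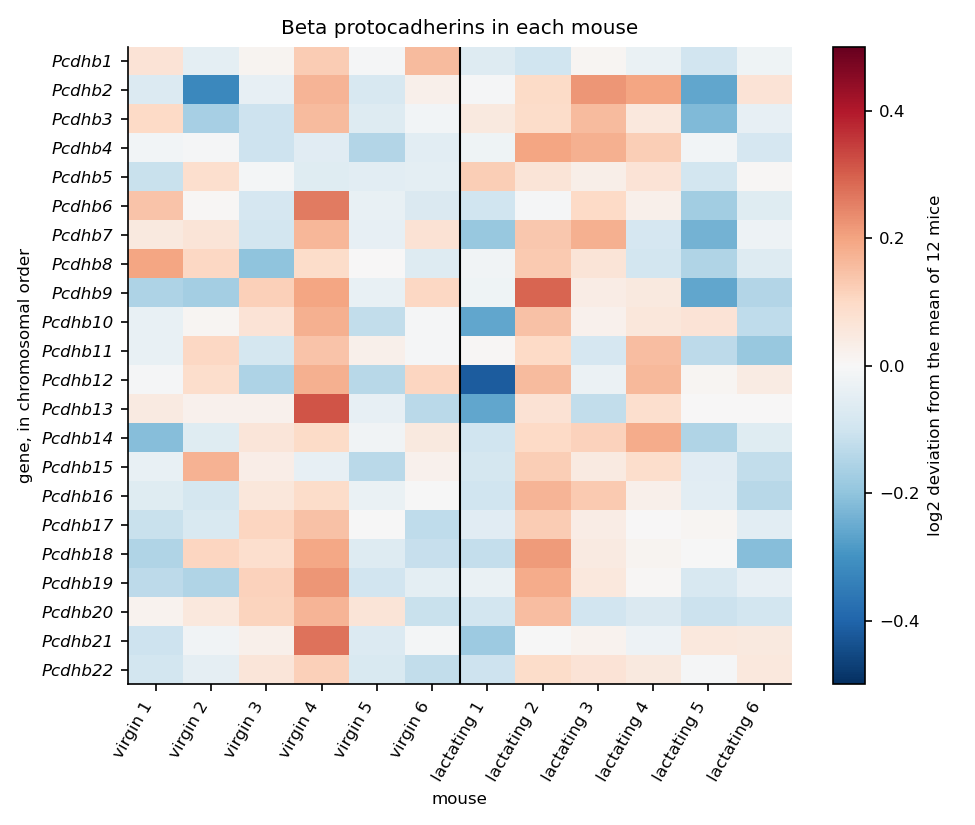
Log2 deviation (colour) of each of 22 beta protocadherins (rows, in chromosomal order) from its mean over 12 mice, for each virgin and lactating mouse (columns). The columns of virgin mouse 4 and lactating mouse 2 are mostly red, with mean deviations of 0.14 and 0.11, and those of lactating mice 1 and 5 are mostly blue.

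The 3 members called lower were all dim. Olfactory and vomeronasal receptors, which serve the sensory neurons of the nose, gave a gauge of low signal: 95% of their 1212 clusters lay below an intensity of 246. Below that level lay 9 members (Cdh1, Cdh3, Cdh15, Cdh16, Cdh17, Cdh23, Cdh26, Pcdhb1 and Pcdhb5), of which 7 had a negative difference, with a median of -0.09. The receptor clusters themselves had a median difference of -0.07. Of the 47 members above that level, 28 were positive and 19 negative, with a median of 0.03, and 0 were called lower. Over all clusters, the median difference was -0.05 in the intensity bin (of 10) that holds Cdh16, with 7.71% called lower, and 0.03 in the bin that holds Cdh10, with 5.65% called higher. The calls of Cdh15, Cdh16 and Pcdhb1 were lost after quantile normalization, median subtraction and cyclic loess. In that order of settings the differences were -0.050, -0.064 and -0.048 for Cdh15 (-0.087 as reported), -0.089, -0.106 and -0.082 for Cdh16 (-0.129 as reported), and -0.059, -0.079 and -0.050 for Pcdhb1 (-0.102 as reported).

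**Figure D4:**
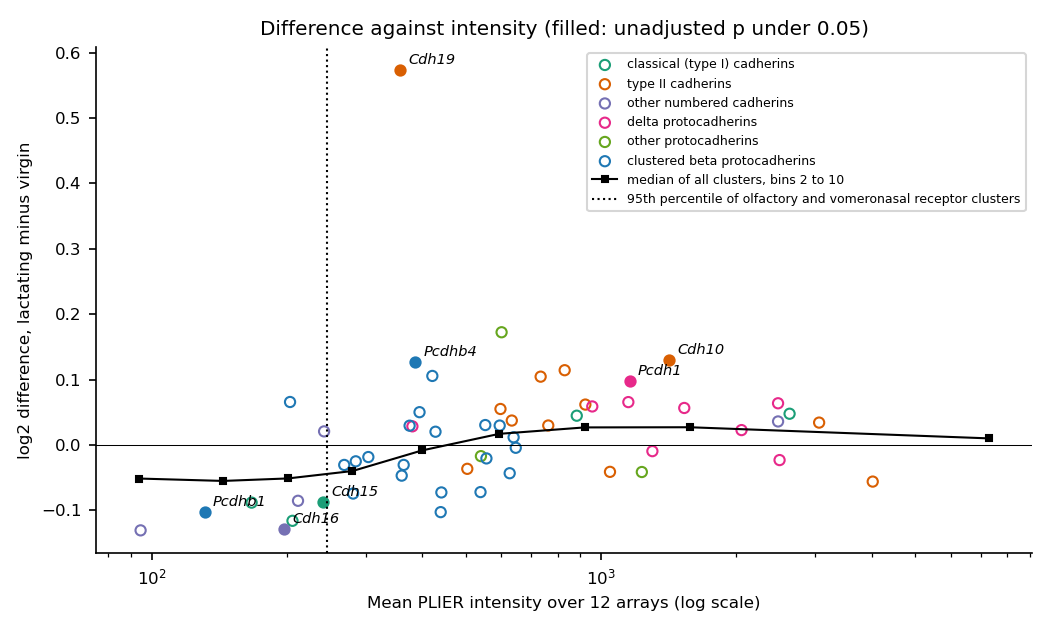
Log2 difference (lactating minus virgin, y axis) of the 56 members against their mean PLIER intensity over 12 arrays (x axis, log scale). Filled points mark the 7 called members, and the line gives the median of all clusters in intensity bins 2 to 10, without the dimmest bin. Cdh15, Cdh16 and Pcdhb1 lie at the dim end, where the line is below 0, while Cdh19 and Cdh10 lie above it at brighter levels.

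Genes that act with cadherins changed little. The counts below stand beside 3.26% of all clusters called higher and 4.69% called lower. Of 16 catenins and junction partners, 1 was higher, Afdn (afadin, which ties nectins to actin), with 1373 ± 47.6 against 1298 ± 43.0 (SD, n = 6 each; log2 0.08, exact permutation p = 0.0130), and Ctnnb1 (beta-catenin) differed by 0.03 (exact permutation p = 0.195). The call of Afdn was lost in 12 of 23 alternatives, among them quantile normalization, cyclic loess, array weights and the replicate block, and its difference ranged from 0.05 to 0.10. It was lost without lactating mouse 2, 3, 4 or 5 and without virgin mouse 1, 2, 4 or 6. Of 15 other genes of the superfamily, 1 was higher and 1 lower. Ret, a receptor tyrosine kinase with cadherin-like domains, had 1320.1 ± 138 against 1171 ± 71.8 (log2 0.17, exact permutation p = 0.0281), and Fat2, a giant cadherin, had 208 ± 13.5 against 233 ± 21.2 (called by limma, log2 -0.15, exact permutation p = 0.0541). Ret lost its call without lactating mouse 3 or 5 or virgin mouse 6, and Fat2 in 10 of 22 alternatives, 8 of them without 1 mouse (lactating 2, 3, 4 or 6, virgin 1, 2, 4 or 6). Of 11 genes that shape or silence the clustered protocadherins, 2 were higher, Rad21 and Stag2. In the intensity bins that hold them, 5.65% and 5.88% of all clusters were called higher. Rad21, a cohesin subunit also on the study's own list from these arrays, had 2112 ± 46.5 against 1961 ± 70.1 (log2 0.11, exact permutation p = 0.00433). Its unadjusted limma p here, 0.00808, was above the cutoff of that list. Stag2, another cohesin subunit, had 707 ± 23.9 against 662 ± 27.1 (log2 0.09, exact permutation p = 0.0195). The other cohesin genes among these 11, Smc1a, Smc3 and Stag1, were not called, with differences of 0.04, 0.05 and 0.02. Rad21 was called in all 23 alternatives and Stag2 in 16, not without lactating mouse 1 or 5 or virgin mouse 2 or 6 nor after quantile normalization, cyclic loess or array weights. Of 13 processing and signaling partners, 0 were called. Every limma adjusted p in these 4 lists was above 0.05.

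Of the 7 called members, only Cdh19 and Cdh10 stayed called under all 23 alternatives tried. The differences of all 7 kept their sign in each alternative in which they were tested, 23 for the members called higher and 22 for Cdh15, Cdh16 and Pcdhb1, which are not among the clusters above the median intensity. The difference of Cdh19 ranged from 0.48 to 0.66 when 1 mouse was left out, and that of Cdh10 from 0.10 to 0.15. Pcdhb4 kept its call when 7 of the 12 mice were left out in turn and in all 11 other settings. Both Pcdh1 and Pcdhb4 lost their call in 5 of the 12 fits without 1 mouse, namely those without lactating mouse 2, 3 or 4 or virgin mouse 3 or 5. Each of 4 members had a further cluster (Cdh18, Cdh24, Pcdh9 and Pcdh15), and the differences of both clusters had the same sign in each.

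**Figure D5:**
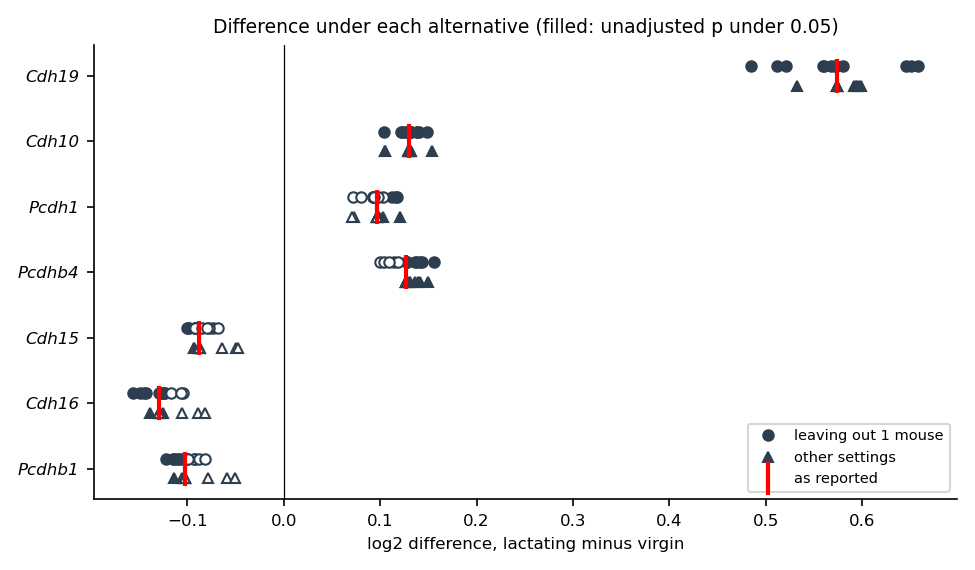
Log2 difference (lactating minus virgin, x axis) of the 7 called members (y axis) when 1 mouse was left out (circles) and under the other settings (triangles); filled marks have an unadjusted limma p under 0.05 and the red line is the value reported. All marks of Cdh19 and Cdh10 are filled, from 0.48 to 0.66 and 0.10 to 0.15.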

How the data were processed

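Total RNA of 12 septum samples was hybridised to 1 array each. Per the submitters' processing notes, the authors summarised probes into transcript clusters and normalized them with PLIER in Affymetrix Power Tools 1.12.0, and the paper adds a background correction by GC content. The deposited values are intensities on a linear scale; the genome build of the annotation is not given in the sources used here, so no gene positions were taken from it. Groups came from the sample labels. Replicates are separate mice. The log2 of intensity plus 16 was compared between the groups with limma 3.58.1 (lmFit and eBayes, two-sided, Benjamini-Hochberg over all 35556 clusters) in R 4.3.3, beside an exact permutation test for single genes. The 12 arrays limit the precision. The scripts were tested on simulated data. Gene symbols were updated through RefSeq (GRCm38.p6), where 56 of 56 members matched, and promoters were read from the same source.

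The members, classes and lists were chosen with earlier results of these data known. Named members were those with an unadjusted p under 0.05, the brightest and the smallest p of each class, the 3 with the largest log2 SD among lactating mice and those with a mouse far from its group. Further lists held markers of 15 cell types or tissues, read beside 3.26% of all clusters called higher and 4.69% lower. Calls in them were Cx3cr1 and P2ry12 lower among 7 microglia markers, 1 lower among 6 of ependyma (Ccdc153), 1 higher among 6 of choroid plexus (Clic6), 1 higher among 6 of excitatory neurons of cortex and hippocampus (Nrn1) and the 1 measured of blood (Alas2, higher). There were 0 calls among the markers of astrocytes, neurons, oligodendrocyte precursors, oligodendrocytes, Schwann and olfactory ensheathing cells, endothelium, meninges, striatum, medial septum and lateral septum. Alternatives were linear intensities, an offset of 1, only clusters brighter than the median, only clusters with 1 symbol, quantile normalization, median subtraction, cyclic loess, a robust variance trend, array weights, replicate number as a block, the mean of all clusters per gene, and each mouse left out. By the paper's methods, RNA extraction was done in matched pairs, which are not named. Mice that share a replicate number have tag numbers close to each other in the labels. Deviations of same-numbered mice correlated at -0.0270 to 0.250, so numbers were not taken as pairs.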

Additional observations from a re-analysis of the deposited data

Results flagged for a closer look

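In 8 of 112 groups of 6 mice checked over the 56 members, 1 mouse lay far from the nearest of the others by Dixon's criterion, where chance alone flags about 5%. Among virgin mice, mouse 4 was highest for Cdh12 at 634 (others 466.5 to 509), for Pcdh15 at 1343 (others 1201 to 1249) and for Pcdhb21 at 326 (others 248 to 272). Virgin mouse 6 was highest for Cdh1 at 279.96 (others 192 to 219) and lowest for Pcdh11x at 1268 (others 1512 to 1594). Among lactating mice, mouse 1 was lowest for Pcdhb12 at 208 (others 277 to 318) and for Pcdhb21 at 234 (others 262 to 278), and mouse 2 was highest for Pcdhb20 at 489.7 (others 406 to 417). None of these 7 genes was among the called members. Without lactating mouse 2, Pcdhb20 was lower in lactating mice at an unadjusted limma p under 0.05, as it also was without virgin mouse 6.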

How the results depend on the processing

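Cdh19 and Cdh10 kept their direction and an unadjusted limma p under 0.05 in all 23 alternatives. The count of members higher in lactating mice, 4 as reported, was 4 to 6 in the 11 settings that kept all mice and 2 to 7 when 1 mouse was left out, with 2 without lactating mouse 3 or 4 and 7 without virgin mouse 4. The count lower, 3 as reported, was 0 with clusters above the median intensity (fewer clusters were tested, and the 3 dim members are below it), 0 after quantile normalization, median subtraction or cyclic loess, 1 with a robust variance trend, and 1 to 4 when 1 mouse was left out, with 1 without lactating mouse 3 or virgin mouse 1. The cause was not tested for the other losses. The split of higher against lower was thus 4 to 3 as reported, 6 to 0 after median subtraction, 4 to 0 after quantile normalization and 4 to 0 after cyclic loess. Over all clusters it moved too, from 1160 to 1668 as reported to 2027 to 992, 1300 to 1191 and 1340 to 1129 in these settings, and it was 782 to 1082 without lactating mouse 3 and 1783 to 2027 without virgin mouse 4. Pcdh1 was not among the 4 members called higher after quantile normalization or after cyclic loess. The adjusted count was 0 throughout. The median difference over all members was 0.02, with -0.0024 to 0.033 when 1 mouse was left out and 0.01 to 0.04 otherwise. With the replicate block, 6 members were higher and 2 lower, and Pcdh1 and Cdh16 lost their calls; the numbers do not establish a pairing. Low signal limits the 9 members below the intensity of 246.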
